A study of Mus musculus with 6 samples.

Results

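*Mccc2* and the genes that break down the branched-chain amino acids were described in the tibias of mice lacking *Atrx* in the osteoblast lineage. The group holds 9 genes (*Bcat1*, *Bcat2*, *Bckdha*, *Bckdhb*, *Dbt*, *Ivd*, *Mccc1*, *Mccc2* and *Auh*) of the 55401 gene identifiers counted, and all 9 passed the filter on low counts that left 20636 genes for testing. They were taken by gene symbol. *Mccc2* was put on the list because earlier results on these libraries had shown it to be higher in Atrx-cKO, so its difference between the genotypes is given below as a description with no test. The other 8 were listed as its partners in the pathway.

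RNA was taken from whole tibias of 3 Atrx-cKO males (*Osterix-Cre; Atrxf/y*) and 3 control males (*Atrxf/y*), all 8 weeks old, and each mouse gave 1 polyadenylated RNA library. Both groups carried the floxed *Atrx* allele. The *Osterix-Cre* transgene, in which *Sp7* (*Osterix*) regulatory sequence drives a Tet-off GFP-Cre fusion, was present in the Atrx-cKO mice only, and doxycycline kept it silent from conception until 3 weeks of age. No library came from a mouse with the transgene and intact *Atrx*, so the transgene and the loss of *Atrx* cannot be told apart. *Atrx* itself was at 169 ± 4.98 CPM (counts scaled by library size; SD, n = 3) in the controls and at 163 ± 9.53 (SD, n = 3) in the Atrx-cKO mice, a measure over the whole gene and the whole bone that gives no check of the genotypes.

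Leucine, isoleucine and valine are broken down in mitochondria. A branched-chain aminotransferase (*Bcat1* in the cytosol, *Bcat2* in mitochondria) first removes the amino group, and the branched-chain ketoacid dehydrogenase complex (BCKDH) then commits the carbon skeleton to breakdown by an irreversible decarboxylation. *Bckdha* and *Bckdhb* encode the subunits of its decarboxylase, and *Dbt* its transacylase core. The leucine branch continues with isovaleryl-CoA dehydrogenase (*Ivd*), methylcrotonyl-CoA carboxylase and methylglutaconyl-CoA hydratase (*Auh*). The carboxylase is built from an alpha subunit that carries the biotin cofactor (*Mccc1*) and a beta subunit that transfers the carboxyl group to the substrate (*Mccc2*), and loss of either subunit in humans causes methylcrotonylglycinuria. Skeletal muscle and fat are known as major sites of this pathway, and a tibia holds bone, marrow, marrow fat and adhering muscle.

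In GRCm38 *Mccc2* (ENSMUSG00000021646) spans bases 99948530 to 100015639 of chromosome 13 and *Mccc1* (ENSMUSG00000027709) spans bases 35959312 to 36000678 of chromosome 3, both read from the minus strand. The 250 bases before the start of each gene, on its own strand, are shown because these are the subunits of a single enzyme and only *Mccc2* had groups that did not overlap. The sequences are from RefSeq (GRCm38.p6, chr13:100015640-100015889 and chr3:36000679-36000928, both minus strand), and capitals mark the letters CCAAT on either strand.
Mccc2: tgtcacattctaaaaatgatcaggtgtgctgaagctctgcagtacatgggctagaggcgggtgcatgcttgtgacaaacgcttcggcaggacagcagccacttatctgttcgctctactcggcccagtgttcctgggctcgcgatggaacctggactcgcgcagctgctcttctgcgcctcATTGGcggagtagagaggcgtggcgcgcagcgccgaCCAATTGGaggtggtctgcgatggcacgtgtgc
Mccc1: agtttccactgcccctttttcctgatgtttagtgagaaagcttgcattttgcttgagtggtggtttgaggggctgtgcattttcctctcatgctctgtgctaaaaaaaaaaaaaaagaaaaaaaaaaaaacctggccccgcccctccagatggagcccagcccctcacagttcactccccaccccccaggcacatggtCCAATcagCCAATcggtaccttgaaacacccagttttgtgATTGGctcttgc
Both windows held 3 matches to CCAAT, at 69, 33 and 30 bases before the start in *Mccc2*, where the last 2 overlap, and at 52, 44 and 12 bases before the start in *Mccc1*. The windows differed in base composition, with 18 CG dinucleotides in *Mccc2* and 2 in *Mccc1* against a median of 6 over the 32851 windows of all genes. A number near that of *Mccc2* was also found in *Auh* (16) and in the first window of *Bckdhb* (15). The remaining windows of the members held 1 to 9. Of the 8 members found in the promoter table (*Dbt* was not matched), 5 had CCAAT in a window, namely *Mccc1*, *Mccc2*, *Bcat1*, *Bckdhb* and *Ivd*, which is 5 of the 11 windows of the members, and 33.8% of all windows hold it. The letters CACGTG were found in *Mccc2* alone among the members, 9 bases before its start, and in 6.02% of all windows. The RUNX consensus TGNGGTT, searched because the study examined RUNX2 at the neighboring gene, was in no member window and in 12.6% of all windows. These are matches of letters and not binding sites.

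*Mccc2* was higher in every Atrx-cKO tibia than in every control. Its CPM, scaled by the trimmed mean of M values (TMM), were 16.9, 14.6 and 16.4 in Atrx-cKO replicates 1, 2 and 3 and 8.55, 8.93 and 9.26 in control replicates 1, 2 and 3, from 987, 835, 968, 488, 595 and 441 counts. The groups did not overlap, and even the lowest library of the Atrx-cKO mice stood at 1.58 times the highest control library. The means were 16.0 ± 1.19 (SD, n = 3) and 8.91 ± 0.355 (SD, n = 3), a ratio of 1.79 and a log2 fold change of 0.84 (standard error, SE, 0.11) in edgeR's quasi-likelihood fit. This difference is the value that put the gene on the list. Groups that do not overlap with Atrx-cKO higher were found in 4.3% of all tested genes. At an adjusted p under 0.05 the fit called 3 of all tested genes, or 0.0145%, each of them higher in Atrx-cKO. *Mccc2* was not among these 3. DESeq2, run as an alternative, did call *Mccc2* at an adjusted p under 0.05, as it did 0.155% of the genes it gave an adjusted p. As *Mccc2* was chosen for its difference, neither outcome is a test of it.

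**Figure D1:**
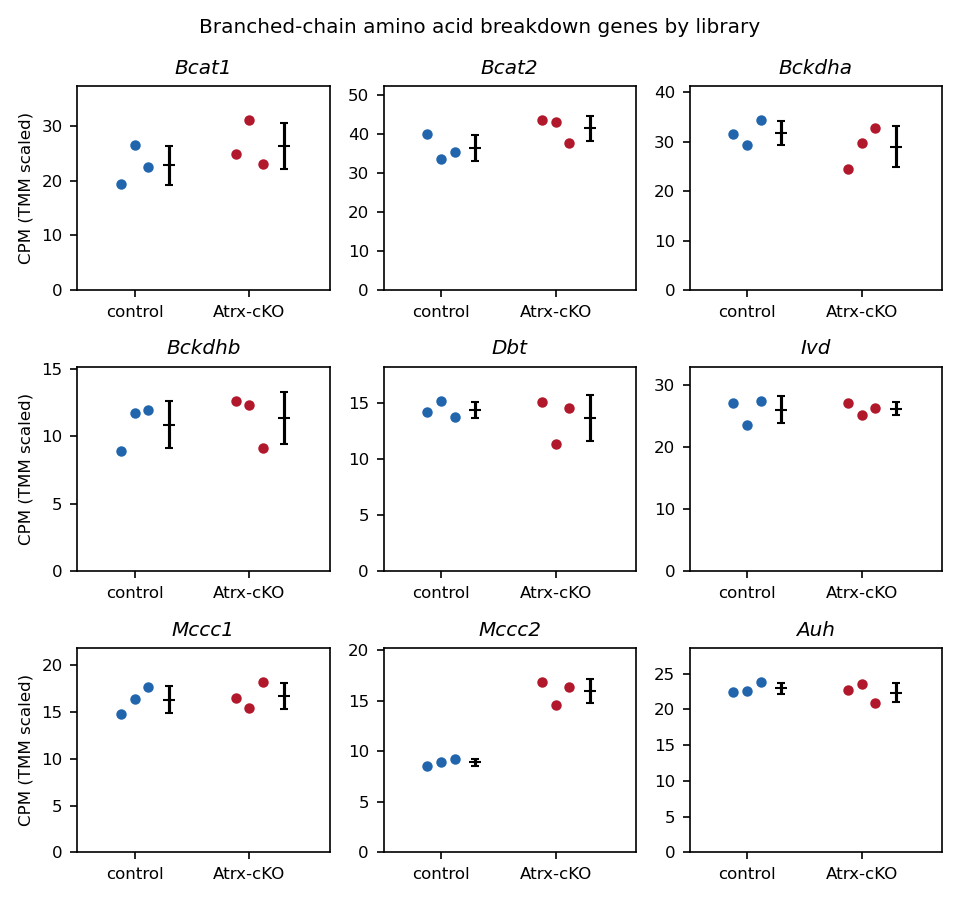
CPM (TMM scaled, vertical axes from 0) of the 9 genes in the 3 control (blue) and 3 Atrx-cKO (red) libraries, with the mean and SD in black beside the points. The Mccc2 libraries lie at 8.55 to 9.26 in control and 14.6 to 16.9 in Atrx-cKO, and in the other 8 panels the groups overlap.

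The partner subunit *Mccc1* showed no such difference. It had 16.5, 15.4 and 18.2 CPM in Atrx-cKO replicates 1, 2 and 3 and 14.8, 16.4 and 17.7 in the controls, with overlapping groups, and a log2 fold change of 0.034 (SE 0.11, edgeR quasi-likelihood adjusted p = 0.994, by Benjamini-Hochberg over all tested genes). The balance between the subunit transcripts was thus unlike in the genotypes, as the choice of *Mccc2* implies. Per kilobase of exon, *Mccc2* was at 4.002, 3.71 and 3.53 times *Mccc1* in Atrx-cKO replicates 1, 2 and 3 and at 2.26, 2.12 and 2.04 times in the controls. The mean log2 ratio was 0.81 higher in Atrx-cKO, where the SD within groups was 0.091 in Atrx-cKO and 0.073 in control, and since *Mccc2* was chosen for its difference this ratio was not tested. The size of the ratio in a library depends on the gene lengths used, and the difference between genotypes does not.

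Propionyl-CoA carboxylase, the related biotin enzyme of isoleucine and valine breakdown, is built in the same way from *Pcca* (alpha) and *Pccb* (beta). The ratio of *Pccb* to *Pcca* per kilobase of exon was 5.52 ± 0.207 in control and 5.25 ± 0.612 in Atrx-cKO (each SD, n = 3), and the ranges overlapped. Between the alpha subunits, *Mccc1* was at 0.446 ± 0.0118 times *Pcca* in control and 0.455 ± 0.0449 times in Atrx-cKO (each SD, n = 3), again with overlap. Between the beta subunits, *Mccc2* was at 0.173 ± 0.0176 times *Pccb* in control and 0.326 ± 0.0320 times in Atrx-cKO (each SD, n = 3), without overlap. This last ratio holds the difference for which *Mccc2* was chosen, so it adds no support to it and was not tested.

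**Figure D2:**
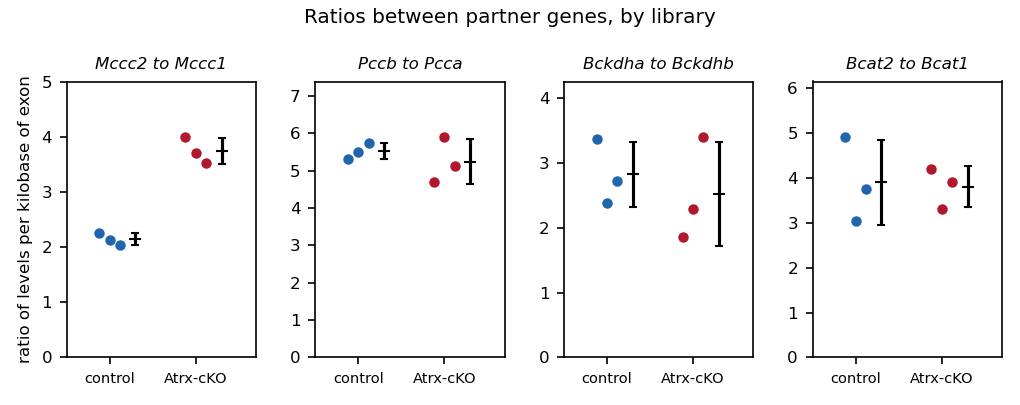
Ratios of levels per kilobase of exon (vertical axes from 0) between partner genes in the 3 control (blue) and 3 Atrx-cKO (red) libraries, with the mean and SD in black. Mccc2 to Mccc1 lies at 2.04 to 2.26 in control and 3.53 to 4.002 in Atrx-cKO, while the other 3 ratios overlap between the groups.

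The enzymes on either side of the carboxylase in the leucine branch had overlapping groups. *Ivd* (chromosome 2 from 118861954 to 118882909) had 27.2, 25.1 and 26.4 CPM in Atrx-cKO and 27.2, 23.5 and 27.5 in control. Between the genotypes it had a log2 fold change of 0.0096 (edgeR, SE 0.095, adjusted p = 0.997). *Auh* (chromosome 13 from 52835119 to 52929681) had 22.7, 23.6 and 20.9 CPM in Atrx-cKO and 22.4, 22.6 and 23.8 in control. The values lay within a narrow band in both genotypes, and the log2 fold change was -0.036 (edgeR, SE 0.089, adjusted p = 0.994).

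Neither aminotransferase gene was called. *Bcat2* (chromosome 7 from 45570153 to 45589711), the mitochondrial form, had 43.5, 42.9 and 37.7 CPM in Atrx-cKO and 39.9, 33.7 and 35.4 in control. Of its Atrx-cKO libraries 2 lay above all controls, and the log2 fold change was 0.19 (edgeR, SE 0.098, adjusted p = 0.992). *Bcat1* (chromosome 6 from 144993835 to 145076184), the cytosolic form, varied more between mice, with 24.8, 31.0 and 23.0 CPM in Atrx-cKO and 19.4, 26.4 and 22.5 in control. Its log2 fold change was 0.21 (edgeR, SE 0.15, adjusted p = 0.992). Of the exon bases of *Bcat2*, 15.9% are shared with *0610005C13Rik* on the other strand, at 2.27 CPM in Atrx-cKO and 2.42 in control, and whether the counting used strand is not stated, so a small part of its reads may belong to that gene.

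None of the BCKDH genes was called. *Bckdha* (chromosome 7 from 25629946 to 25658981) had 24.6, 29.7 and 32.8 CPM in Atrx-cKO and 31.6, 29.4 and 34.4 in control, a log2 fold change of -0.13 (edgeR, SE 0.12, adjusted p = 0.992). Atrx-cKO replicate 1 was the only library under all controls. The values of *Bckdha* are uncertain, because 61.7% of its exon bases are shared with *B3gnt8* on the other strand, which had 33.8 CPM in Atrx-cKO and 34.8 in control. *Bckdhb* (chromosome 9 from 83925145 to 84124240) had 12.6, 12.3 and 9.14 CPM in Atrx-cKO and 8.90, 11.7 and 11.97 in control, and each genotype held 1 library well under its other libraries. Its log2 fold change was 0.064 (edgeR, SE 0.18, adjusted p = 0.994). *Dbt* (chromosome 3 from 116513070 to 116549981) had 15.1, 11.3 and 14.5 CPM in Atrx-cKO and 14.2, 15.1 and 13.7 in control, a log2 fold change of -0.075 (edgeR, SE 0.13, adjusted p = 0.992). *Dld*, the dehydrogenase that BCKDH shares with other complexes, was at 0.073 (SE 0.096), and the kinase *Bckdk* and phosphatase *Ppm1k*, which switch the complex off and on, were at -0.055 (SE 0.13) and 0.018 (SE 0.11). None of these 3 was called, with adjusted p from 0.992 to 0.997 in edgeR.

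Over the 8 members other than *Mccc2*, 0 were called by edgeR in either direction, 0 had an unadjusted p under 0.05, and 0 were called by DESeq2 at an adjusted p under 0.05. Of all tested genes 3.64% had an unadjusted p under 0.05, with 1.59% higher and 2.05% lower in Atrx-cKO. DESeq2 called 0.155% of the genes it gave an adjusted p, with 0.0794% higher and 0.0752% lower. All 8 had overlapping groups, where 8.31% of all tested genes had groups that did not overlap, with 4.01% lower in Atrx-cKO. Their log2 fold changes ran from -0.13 to 0.21 with a median of 0.022, against a median of 0.0050 over all tested genes, and 5 of the 8 were within 0.1 of 0. Among the control mice the CV of these 8 ran from 3.42% for *Auh* to 15.7% for *Bckdhb*, and among the Atrx-cKO mice from 3.95% for *Ivd* to 17.0% for *Bckdhb*. *Mccc2* varied by 3.98% among controls and 7.48% among Atrx-cKO mice. The median CV over all tested genes was 13.6% and 11.9%.

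Of the wider pathway, 42 genes were listed by role and all were tested. Apart from the members this left 33 genes, of which 0 were called by edgeR or by DESeq2, and 1 had an unadjusted p under 0.05. Their median log2 fold change was -0.012, with 16 above 0 and 17 below. Within 0.1 of 0 were 24 of the 33, and 44.8% of all tested genes. These shares were not matched for spread, as the median CV among controls was 8.98% for the 33 and 13.6% for all tested genes. In 31 of the 33 the groups overlapped. Of all tested genes, 8.31% had groups that did not overlap and 3.64% had an unadjusted p under 0.05 in edgeR. Among the 33, the gene with the unadjusted p under 0.05 was *Bdh1*, which interconverts the ketone bodies. It had 6.19, 4.29 and 7.24 CPM in Atrx-cKO and 7.39, 7.68 and 11.4 in control, a log2 fold change of -0.58 (edgeR, SE 0.25, adjusted p = 0.992). The groups did not overlap, though Atrx-cKO replicate 3 and control replicate 1 were nearly equal. The other gene without overlap was *Hibch* of the valine branch, at 18.03 ± 0.572 CPM in control and 18.7 ± 0.0474 in Atrx-cKO (each SD, n = 3), a log2 fold change of 0.054 (SE 0.085).

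By role, the largest fold change among the transporters was that of *Slc6a15*, a neutral amino acid transporter, at -0.40 (SE 0.36), with 3.42, 4.80 and 3.34 CPM in Atrx-cKO and 2.75, 7.82 and 4.62 in control. *Slc25a44*, the mitochondrial carrier of branched-chain amino acids, was at -0.064 (SE 0.076). In the isoleucine branch the largest was *Hsd17b10*, a mitochondrial dehydrogenase, at 0.093 (SE 0.11). On the propionyl-CoA route it was *Mcee*, the methylmalonyl-CoA epimerase, at -0.21 (SE 0.13). Of the genes of biotin supply and the other biotin carboxylases it was *Acacb*, an acetyl-CoA carboxylase, at -0.45 (SE 0.45), with 10.1, 8.43 and 29.8 CPM in control replicates 1, 2 and 3. *Hlcs*, which attaches biotin to carboxylases including methylcrotonyl-CoA carboxylase, was at 0.052 (SE 0.11). None of these 6 was called, with edgeR adjusted p between 0.992 and 0.994.

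**Figure D3:**
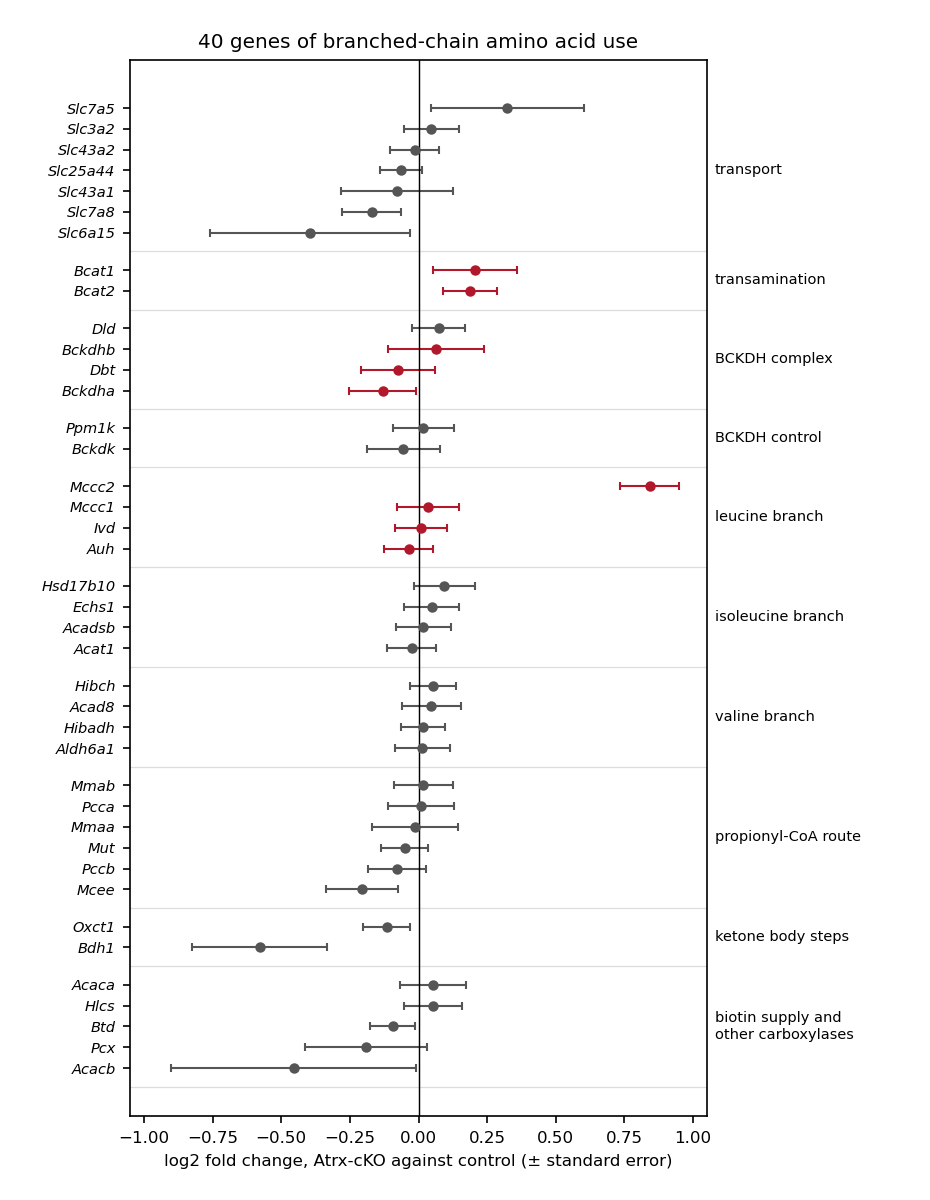
Log2 fold change, Atrx-cKO against control, with SEs from the edgeR fit, for 40 genes of the pathway list grouped by role, with the 9 members in red and the others in grey. Mccc2 lies at 0.84, and the other 39 genes drawn run from -0.58 for Bdh1 to 0.32 for Slc7a5.

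The order of the levels within the pathway was read per kilobase of exon, as TPM, a length-scaled level with the same total in every library. In control tibias *Bckdha* was highest at 56.0 ± 4.06 (SD, n = 3), followed by *Bcat2* at 31.3 ± 4.29, *Bckdhb* at 20.1 ± 2.27, *Ivd* at 15.9 ± 1.67, *Dbt* at 14.3 ± 1.09, *Mccc2* at 10.6 ± 0.138, *Bcat1* at 8.15 ± 1.07, *Auh* at 8.01 ± 0.231 and *Mccc1* at 4.97 ± 0.194 (each SD, n = 3). Neighbors in this order whose control ranges overlapped were *Bckdhb* and *Ivd*, *Ivd* and *Dbt*, and *Bcat1* and *Auh*. *Mccc2* stood between *Dbt* and *Bcat1* without overlap with either. In Atrx-cKO tibias *Mccc2* was at 19.3 ± 1.14 (SD, n = 3) and held the 4th place, above *Ivd* at 16.1 ± 0.366 (SD, n = 3) and *Dbt* at 13.8 ± 1.83 (SD, n = 3), and overlapped *Bckdhb* at 21.3 ± 3.37 (SD, n = 3). The other 8 genes kept their order. The place of *Bckdha* is uncertain, because 61.7% of its exon bases are shared with *B3gnt8* and whether the counting used strand is not stated. The order depends on the gene length, and with the longest annotated transcript in its place *Bcat2* was highest, *Auh* moved up from the 8th to the 5th place in control, and *Mccc2* was 7th in control and 4th in Atrx-cKO.

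**Figure D4:**
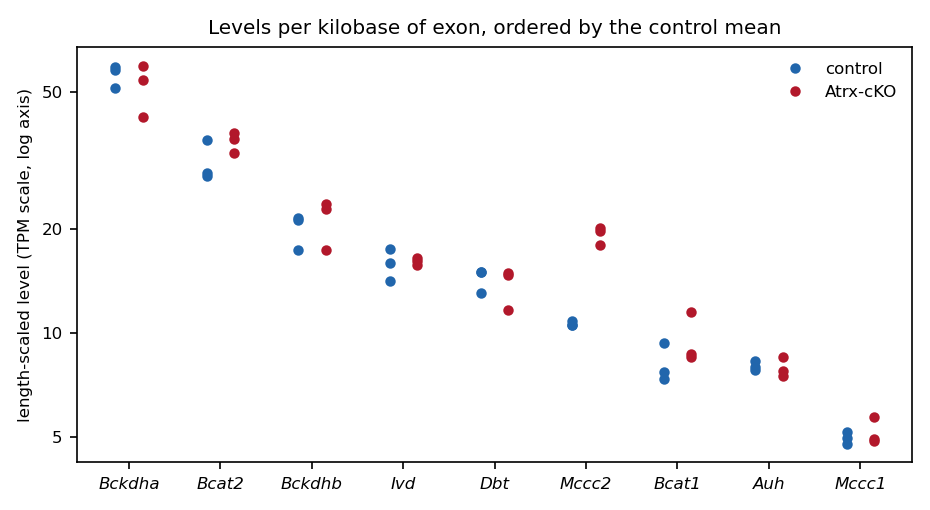
Levels per kilobase of exon on the TPM scale (log axis) for the 9 genes in 3 control (blue) and 3 Atrx-cKO (red) libraries, ordered by the control mean. Mccc2 is at 10.6 ± 0.138 (SD, n = 3) in control and 19.3 ± 1.14 (SD, n = 3) in Atrx-cKO, and the other genes overlap between genotypes.

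*Mccc2* lies beside *Cartpt*, the neuropeptide gene that the study follows in Atrx-cKO bone. Both are on the minus strand, *Mccc2* ends 47.4 kb before *Cartpt* starts, and GENCODE M21 has no gene in between. *Cartpt* had 192, 146 and 149 CPM in Atrx-cKO and 0, 0.0150 and 0.630 in control. On the other side *Bdp1*, a subunit of the RNA polymerase III initiation factor, ends 2.35 kb from the *Mccc2* start on the same strand. It had 47.7 CPM in Atrx-cKO and 45.6 in control, a log2 fold change of 0.066 (SE 0.077). Within 1000 kb of the *Mccc2* start 30 genes were tested, and the median log2 fold change of the 28 other than *Mccc2* and *Cartpt* was 0.080, with 18 above 0. Over all 20636 tested genes the median was 0.0050, with 10572 above 0, and a shift of the region was not tested. The lowest of them was *Ocln*, a tight junction protein gene, at -2.90 (SE 0.61), with 0.0909 CPM in Atrx-cKO and 0.695 in control.

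**Figure D5:**
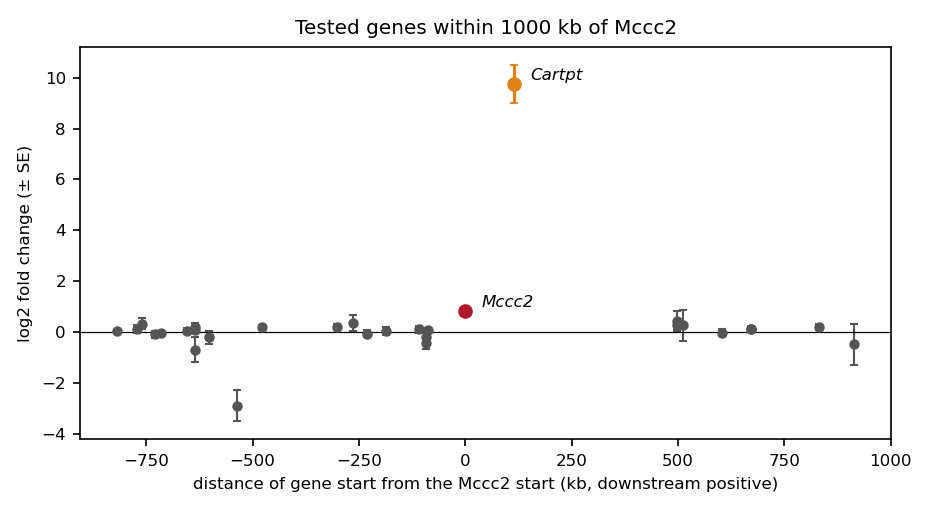
Log2 fold change with its SE for the 30 tested genes within 1000 kb of Mccc2, by the distance in kb of the gene start from the Mccc2 start, downstream of Mccc2 positive. Cartpt lies at 9.75 and Mccc2 at 0.84, and the other 28 genes run from -2.90 for Ocln to 0.45 with a median of 0.080.

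The genes whose pattern over the 6 libraries was nearest to that of *Mccc2* were outside the pathway. Likeness was the root mean square difference in log2 CPM, each gene centered on its own mean, over the 16168 genes with a mean of at least 1 CPM. The nearest 5 were *Myg1* (0.0856), *Aaas* (0.107), *Pfdn5* (0.117), *Rpl30* (0.134) and *Klhl4* (0.153), all higher in Atrx-cKO without overlap, as choosing them by likeness to *Mccc2* makes likely. *Myg1*, *Aaas* and *Pfdn5* lie beside *Sp7* on chromosome 15, the gene whose regulatory sequence drives the transgene. *Rpl30* is also on chromosome 15, *Klhl4* is on the X chromosome, and *Mccc2* itself is on chromosome 13. Whether the transgene has a part in the values of any of these genes was not tested. *Myg1* had 29.7, 28.3 and 27.7 CPM in Atrx-cKO and 15.7, 18.2 and 17.8 in control. *Sp7* itself was at 362 ± 62.8 CPM in control and 317 ± 35.7 in Atrx-cKO (each SD, n = 3), with overlapping groups. Of the members the nearest to *Mccc2* was *Bcat2*, at 0.340 and the 890th place, and *Mccc1* was 4089th at 0.392.

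Libraries held from 50977777 to 70571655 counts on genes, and the members had from 441 to 2544 counts each. Of the 67 markers of bone, cartilage, marrow, muscle and fat looked for, 0 were at 0 in all libraries, with the osteoblast list (*Col1a1* and *Col1a2* its most abundant) summing to between 114740 and 118254 CPM in Atrx-cKO and between 108756 and 185095 in control. Skeletal muscle moved with single libraries. The 16 muscle markers, none of them at 0 in all libraries, summed to 3086, 1618 and 899 CPM in Atrx-cKO replicates 1, 2 and 3 and to 1061, 1169 and 15083 in control replicates 1, 2 and 3, led by *Myh4* and *Atp2a1*. *Acacb* and *Bdh1* were highest in control replicate 3, and the part of muscle in their values was not tested. *Mccc2* was at 9.26 CPM in that library. The log2 fold change of *Mccc2* was 0.86 without that library and 0.86 with the muscle markers as a covariate. These are values of the gene chosen for this difference, and the part of muscle in them was not tested either. The 8 fat markers summed to between 174 and 269 CPM in Atrx-cKO and between 171 and 253 in control, while their median log2 fold change was -0.35. In whole bone, fewer cells of a type and less RNA per cell cannot be told apart.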

How the data were processed

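Each library was made from polyadenylated RNA and sequenced as paired reads of 150 bases. For each library the authors deposited raw counts by gene, and the submitters' processing notes name GRCm38 and DESeq2. The aligner, the counting program and its strand setting are not given in the sources used here. The 5 summary entries were kept out, of which reads on no feature made up 51.6% to 52.4% of each table. Identifiers were matched to GENCODE M21 (55141 of 55401).

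Counts were fitted with edgeR 4.0.16 in R 4.3.3 (TMM, filterByExpr, glmQLFit and glmQLFTest, genotype alone), with calls at a Benjamini-Hochberg adjusted p under 0.05 over all 20636 genes. CPM are TMM scaled, and 0.5 CPM was added for log2 values. DESeq2 1.42.0, other scalings and filters, a replicate block, a muscle covariate and each library left out were the alternatives. Levels between genes were compared per kilobase of the union of exons.

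The members and lists were chosen with earlier results of these data known. The genes named were the members, in each role of the pathway list the gene with the largest fold change in size, the 5 nearest in pattern to *Mccc2*, its neighbors, *Atrx*, *Cartpt*, *Sp7* and the 2 most abundant markers of a list. *Ppm1k*, *Slc25a44*, *Hlcs*, *Pcca*, *Pccb*, *Slc7a5* and *Ocln*, and the windows printed, were chosen after values were seen. Some genes of the list are counted in its totals and not reported here. The deviations of libraries with the same number correlated at -0.0031, 0.108 and -0.0996. These values gave no sign that the numbers pair the mice but cannot exclude it, and the numbers were not used as pairs. Libraries of a genotype differed by more than sampling noise (chi-square divided by its degrees of freedom, 15.8 to 137), and each came from its own mouse as far as the labels say. The fits were also run on simulated counts with known changes, each larger than that of any member, and the outcome is not reported here.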

Additional observations from a re-analysis of the deposited data

How the results depend on the processing

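The log2 fold change of *Mccc2* ran from 0.80 to 0.92 over the 14 alternatives, a range that the choice of the gene keeps above 0. Its log2 ratio to *Mccc1* differed by 0.76 to 0.85 with 1 library left out. None of the other 8 members was called under any alternative, and the lowest adjusted p was 0.462 (*Bcat2* without control replicate 1). Of their 112 values 10 changed sign. In the fits that each left out 1 library, *Bcat1* ran from 0.059 (without Atrx-cKO replicate 2) to 0.33 (without control replicate 2), *Bcat2* from 0.13 to 0.26, *Bckdha* from -0.23 to -0.025, *Mccc1* from -0.034 to 0.083, *Bckdhb* from -0.060 to 0.20, *Dbt* from -0.15 to 0.034, *Ivd* from -0.061 to 0.043 and *Auh* from -0.085 to 0.010. *Auh* was at 0.037 with library size alone as the scaling, where the median of all tested genes was 0.077. The cause of these changes was not tested.

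Over all genes, edgeR called 3 higher and 0 lower. DESeq2 called 19 and 18, and edgeR without a filter 9 and 1. Of the 42 pathway genes, 1 was counted as higher with DESeq2 and with edgeR without a filter, namely *Mccc2*. In the main edgeR fit and under every other alternative 0 of the 42 were called higher. Since this difference put *Mccc2* on the list, neither outcome is a test of it. With at least 10 counts in every library 1 gene was higher. Leaving out 1 library gave 0 to 5 genes higher and 0 to 1 lower. The 5 came without control replicate 3, and there were 0 without control replicate 2, without Atrx-cKO replicate 1 and without Atrx-cKO replicate 2, and 1 without Atrx-cKO replicate 3. With a replicate block, where it is not known that the numbers pair mice, 0 genes were called and *Mccc2* was at 0.84. Of the 9 places in the control order of levels, 3 were kept with the longest transcript as the gene length, and 7 to 9 without 1 library.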
